A study of Mus musculus with 24 samples.

Results

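Immediate early genes are switched on within minutes of a stimulus, without waiting for new protein. The 10 followed here are Egr1, Fos, Jun, Junb, Ier2, Ier3, Btg2, Dusp1, Atf3 and Myc, taken by symbol from a liver RNA count table of 35304 genes. All 10 were in the table, and all 10 passed the filter on low counts that left 17275 genes to test.

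Signals from growth factor receptors run through the kinase ERK to the transcription factors ELK and SRF, and signals through cyclic AMP reach CREB. Both act on promoters of immediate early genes, whose RNAs are short-lived and fall again soon after the signal ends. In liver this class responds to feeding, hormones, injury and the handling of the tissue. Several of the encoded proteins are themselves transcription factors. FOS and JUN proteins pair as AP-1, EGR1 binds GC-rich sites and MYC pairs with MAX. DUSP1 is a phosphatase that switches MAP kinases off, and BTG2 slows cell division and takes part in RNA decay.

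HepKO mice carried the allele Bmal1_fl/fl, the floxed clock gene Arntl, with the Cre transgene Alb::Cre_+/0, in which the albumin promoter drives recombination in hepatocytes. HepWT mice carried the same floxed alleles without Cre (Alb::Cre_0/0). All were C57BL/6 animals of 8-12 weeks on night restricted feeding, so the feeding schedule was shared. Sampling was at zeitgeber time (ZT, counted in hours from lights on) 2, 6, 10, 14, 18 and 22. Each of the 12 pairs of genotype and time has 2 libraries, 24 in all. Nothing in the labels says that each library is a separate animal, so the p-values measure the spread between libraries, which may be technical.

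The second HepKO library of each time from ZT6 to ZT22 was shallower, these 5 holding 12997689 to 16910415 counts, against 23583035 to 30677807 in the other 19. Levels are given as CPM, the share of a library's reads scaled to a common depth with TMM factors. Arntl read 10.3 to 17.7 CPM in the HepKO libraries, against 1.27 to 46.0 CPM in the HepWT libraries. At ZT10 and ZT14 both HepKO libraries were above both HepWT libraries, and at the other 4 times both were below. Albumin-driven Cre spares the other cell types of the liver, which keep the gene. Which cells or which form of the allele gave the Arntl RNA counted in HepKO was not tested. Alb, the defining hepatocyte transcript, averaged 25010 CPM in HepKO and 63920 CPM in HepWT, a fall of 1.36 on the log2 scale (edgeR adjusted p = 4.31e-09). Of the 7 hepatocyte markers in the table Alb was the 1 that fell, Serpina1c was the 1 that rose (by 0.41, adjusted p = 6.09e-05) and 5 did not pass, with a median log2 difference of -0.01. Alb dominates the summed level of these markers, 39140 to 57500 CPM in HepKO and 75320 to 106200 CPM in HepWT.

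RefSeq promoter sequences (build GRCm38.p6) were searched for 7 of the 10 genes, Btg2, Atf3, Jun, Junb, Fos, Dusp1 and Ier3. Egr1, Ier2 and Myc were not searched, so the promoter counts leave them out. The 250 bases before 1 annotated start of transcription per gene are printed for 4 of the 7. For Atf3 and Dusp1 this window lies inside the annotated gene span, so starts further upstream were not searched. Junb and Atf3 are shown because they carry the genotype calls reported below, and Dusp1 and Btg2 because they hold the full cyclic AMP response element. Each run reads 5′ to 3′ along the gene. Capitals mark TGACGTCA (the cyclic AMP response element), the shorter core TGACG or its reverse complement, and CACGTG (the E-box bound by the BMAL1 and CLOCK pair).
Junb, chr8:84978749-84978998, minus strand: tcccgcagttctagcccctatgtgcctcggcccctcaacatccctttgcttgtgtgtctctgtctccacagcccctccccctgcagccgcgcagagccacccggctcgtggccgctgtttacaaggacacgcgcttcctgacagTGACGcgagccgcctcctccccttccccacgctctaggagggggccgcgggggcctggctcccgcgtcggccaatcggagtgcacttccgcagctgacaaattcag
Atf3, chr1:191183334-191183583, minus strand: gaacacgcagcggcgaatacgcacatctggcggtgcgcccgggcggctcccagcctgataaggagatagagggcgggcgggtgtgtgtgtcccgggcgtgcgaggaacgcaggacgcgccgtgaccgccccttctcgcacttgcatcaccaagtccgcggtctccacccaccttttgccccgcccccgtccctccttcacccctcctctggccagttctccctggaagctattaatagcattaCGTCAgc
Dusp1, chr17:26508473-26508722, minus strand: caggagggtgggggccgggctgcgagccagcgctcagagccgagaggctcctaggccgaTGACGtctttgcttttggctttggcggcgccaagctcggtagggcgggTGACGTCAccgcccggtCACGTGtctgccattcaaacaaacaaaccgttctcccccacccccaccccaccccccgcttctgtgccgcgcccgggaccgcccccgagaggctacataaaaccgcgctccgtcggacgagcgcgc
Btg2, chr1:134079156-134079405, minus strand: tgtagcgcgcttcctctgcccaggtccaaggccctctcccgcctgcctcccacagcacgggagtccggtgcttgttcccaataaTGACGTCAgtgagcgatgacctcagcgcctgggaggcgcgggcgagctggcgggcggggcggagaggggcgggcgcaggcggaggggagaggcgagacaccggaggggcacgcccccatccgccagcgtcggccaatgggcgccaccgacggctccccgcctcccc

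Searched on both strands, TGACGTCA was in 2 of the 7 promoters, Dusp1 and Btg2, against 1.55% of 32851 mouse promoter windows of the same length. The core TGACG, which lies inside the full element, was in 5 of 7, namely Btg2, Atf3, Junb, Fos and Dusp1, against 17.8% of all windows. CACGTG was in 1 of 7, Dusp1, against 6.02% of all windows. The AP-1 site TGACTCA was in 0 of 7 (4.46% of all) and the SRF site known as the CArG box in 0 of 7 (1.47% of all), which says only that these letters are absent from these windows.

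Over the whole day, 1 of the 10 genes differed between genotypes. Junb, a JUN family member of AP-1, was lower in HepKO, whereas 26.5% of all tested genes were called in either direction (13.2% higher, 13.3% lower). The median log2 difference, HepKO minus HepWT, was -0.07 over the 10 genes and -0.01 over all tested genes. Across all 24 libraries the widest span belonged to Egr1, whose highest level was 208 times its lowest, and the narrowest to Btg2, at 2.41 times. Per kilobase of exon, the mean level of the day ran from 7.58 CPM for Ier2 and 5.27 for Dusp1 down to 0.447 for Atf3 and 0.345 for Fos in HepKO. In HepWT the same per-kilobase levels were 7.84 for Ier2, 5.78 for Dusp1, 0.674 for Atf3 and 0.306 for Fos. Fos rested on 4 to 49 counts a library, Ier3 on 6 to 26 and Atf3 on 8 to 92, so counting error is a large part of their spread. At single times, libraries that do not overlap are 2 against 2, and the share of all tested genes without overlap was not counted. Such separations describe the values and are not read as genotype differences. Those not named below were Fos at ZT14 and Ier2 at ZT6, with HepKO above, and Ier3 at ZT2 and ZT14, with HepKO below.

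**Figure D1:**
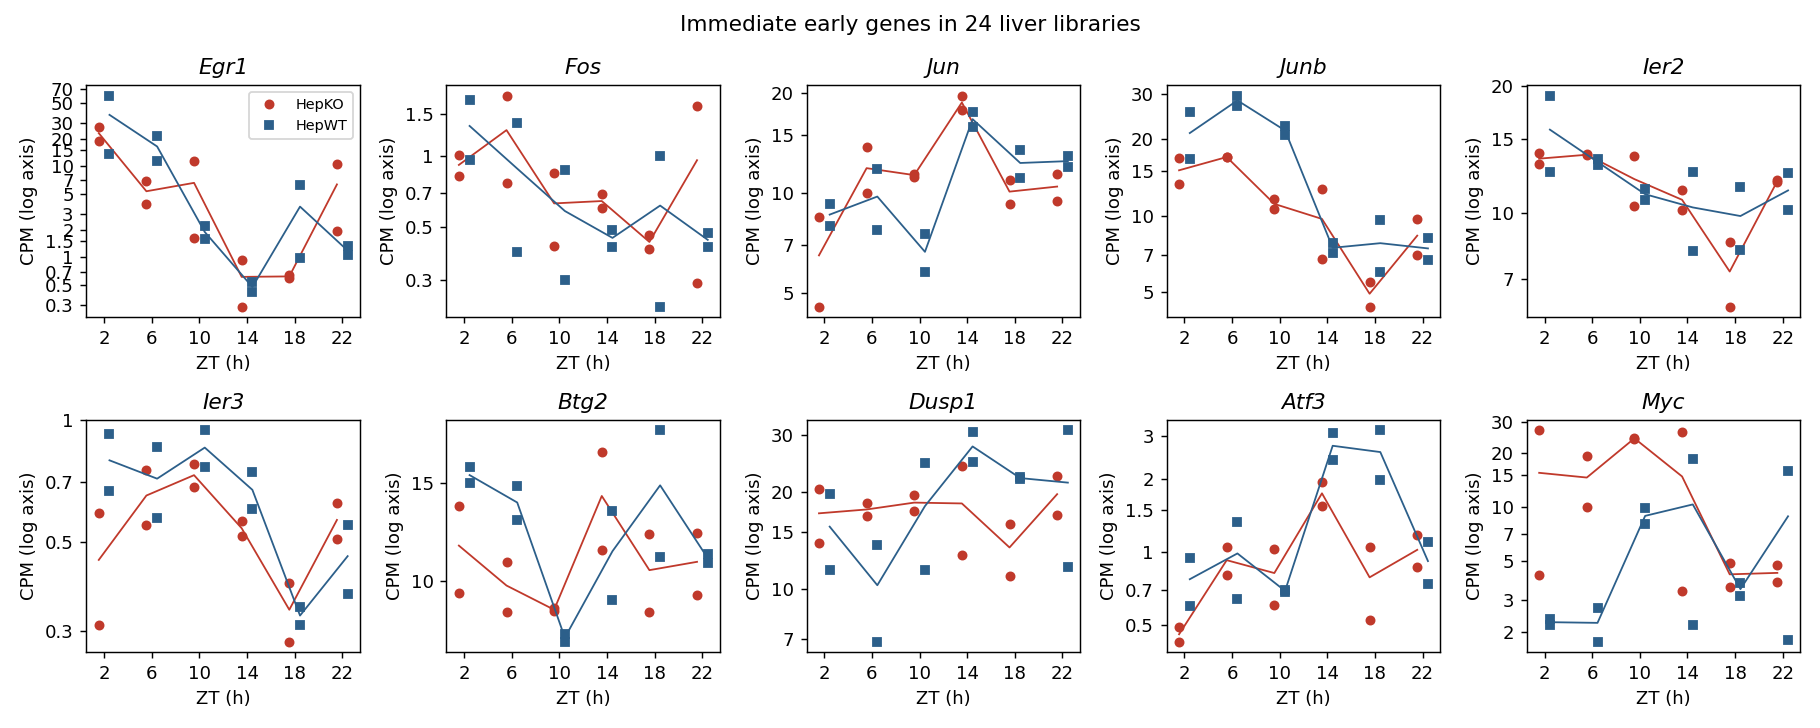
CPM (log axis) of each gene in the 24 libraries against ZT in hours, HepKO circles left of HepWT squares, with lines through the mean of the 2 libraries. Egr1 was highest at ZT2 and lowest at ZT14 in both genotypes, and Jun was highest at ZT14 in both.

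Egr1, a zinc finger factor induced by ERK and SRF and encoded on chromosome 18, had the largest daily swing of the 10 genes. In HepKO livers it read 19.0 and 27.2 CPM at ZT2, 6.82 and 3.82 at ZT6, 1.63 and 11.5 at ZT10, 0.938 and 0.287 at ZT14, 0.646 and 0.593 at ZT18, and 10.7 and 1.96 at ZT22. In HepWT livers it read 59.8 and 13.6 CPM at ZT2, 21.5 and 11.5 at ZT6, 2.21 and 1.60 at ZT10, 0.536 and 0.413 at ZT14, 0.996 and 6.23 at ZT18, and 1.06 and 1.32 at ZT22. The ZT2 libraries were above every ZT14 library in both genotypes, while the 2 libraries of one time could differ several-fold, as at ZT10 and ZT22 in HepKO and at ZT2 and ZT18 in HepWT. A 24 h cosine fitted to Egr1 had an amplitude (mean to peak, log2) of 2.25 ± 0.57 in HepKO and 2.46 ± 0.49 in HepWT (SE, 12 libraries each). That is a peak 22.6 times the trough in HepKO and 30.4 times in HepWT, with fitted peaks at ZT3.4 and ZT2.64. The rhythm passed the test in HepKO (edgeR adjusted p = 0.0231) and in HepWT (adjusted p = 0.00171). The difference between the 2 rhythms did not pass (adjusted p = 0.943). The HepKO call was lost (adjusted p between 0.0542 and 0.0839) on leaving out any one of HepKO ZT2 replicate 2, both ZT14 and both ZT18 libraries, with an amplitude of 2.05 to 2.23. It was also lost without the 5 HepKO libraries of lower depth (2.61, adjusted p = 0.0866). Averaged over the day, Egr1 differed by a log2 of -0.02 ± 0.46 (95% interval -0.91 to 0.88, adjusted p = 0.987). The interval still allows differences of nearly 1 on the log2 scale in either direction. At single times the values lay both ways, with HepKO wholly below HepWT at ZT6 and ZT18 and wholly above it at ZT22, and no time passed (adjusted p = 0.329 at ZT6, 0.318 at ZT18 and 0.300 at ZT22).

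Fos, the AP-1 partner of the JUN proteins, was low and passed no test. Its HepKO libraries ran from 0.290 to 1.80 CPM with a median of 0.729, and its HepWT libraries from 0.230 to 1.72 CPM with a median of 0.479. The day average differed by a log2 of 0.20 ± 0.32 (adjusted p = 0.706). Its fitted amplitude was 0.56 ± 0.31 in HepKO and 0.64 ± 0.29 in HepWT, with peaks at ZT3.16 and ZT3.25 and adjusted p = 0.419 and 0.211. These values sit close to the Egr1 peak times, but neither wave passed the test.

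Jun (chr4:95049034-95052222, minus strand, GRCm38) encodes c-JUN, the AP-1 subunit that can also pair with itself. In HepKO it read 8.45 and 4.55 CPM at ZT2, 10.0 and 13.8 at ZT6, 11.2 and 11.5 at ZT10, 19.7 and 17.8 at ZT14, 9.29 and 10.9 at ZT18, and 9.48 and 11.5 at ZT22. In HepWT it read 7.96 and 9.29 CPM at ZT2, 7.73 and 11.8 at ZT6, 7.54 and 5.79 at ZT10, 15.8 and 17.6 at ZT14, 11.2 and 13.5 at ZT18, and 12.0 and 13.0 at ZT22. In each genotype both ZT14 libraries were above the other 10. Differences between times passed in HepKO (adjusted p = 0.00881) and in HepWT (adjusted p = 0.00623). The HepKO call was lost without HepKO ZT14 replicate 1 (adjusted p = 0.052). A single 24 h wave described Jun less sharply, with an amplitude of 0.51 ± 0.15 in HepKO (adjusted p = 0.0528) and 0.42 ± 0.15 in HepWT (adjusted p = 0.082). The HepKO wave passed with limma-voom (0.57, adjusted p = 0.0366) and without HepKO ZT6 or ZT22 replicate 2, or HepWT ZT6, ZT10 or ZT14 replicate 2 (0.51 to 0.58, adjusted p of 0.0376 to 0.0442). The HepWT wave passed without HepWT ZT6 replicate 2 (0.57, adjusted p = 0.0239). The day average differed by a log2 of 0.04 ± 0.10 (95% interval -0.16 to 0.23, adjusted p = 0.825). At ZT10 both HepKO libraries were above both HepWT libraries, by a log2 of 0.77 ± 0.25 that did not pass (adjusted p = 0.0715). The genotypes did not overlap at ZT14 either, with HepKO above, nor at ZT18 and ZT22, with HepKO below, and none of these passed.

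Junb (chr8:84974484-84978718, minus strand, GRCm38) was high at other times than Jun. Its time means were highest at ZT2, ZT6 and ZT10 in both genotypes, though HepKO ZT14 replicate 1 exceeded both HepKO ZT10 libraries. In HepKO it read 16.8 and 13.4 CPM at ZT2, 17.0 and 17.0 at ZT6, 11.6 and 10.6 at ZT10, 12.7 and 6.71 at ZT14, 4.36 and 5.47 at ZT18, and 9.69 and 6.97 at ZT22. In HepWT it read 25.5 and 16.8 CPM at ZT2, 27.1 and 29.7 at ZT6, 22.5 and 20.8 at ZT10, 7.79 and 7.13 at ZT14, 5.98 and 9.58 at ZT18, and 6.66 and 8.17 at ZT22. HepKO lay wholly below HepWT at ZT6, ZT10 and ZT18, and the genotypes overlapped at the other 3 times. Averaged over the day Junb fell by 0.38 on the log2 scale in HepKO (SE 0.11, 95% interval -0.59 to -0.17, adjusted p = 0.015), a level 1.30 times higher in HepWT. Both waves passed, with an amplitude of 0.74 ± 0.14 in HepKO (adjusted p = 0.00314) and 1.12 ± 0.13 in HepWT (adjusted p = 5.23e-06), and peaks at ZT5.71 and ZT6.04. Their difference did not pass (adjusted p = 0.579). The day-average call was lost without the 5 HepKO libraries of lower depth (-0.29, adjusted p = 0.117) and against HepWT replicate 1 libraries alone (-0.34, adjusted p = 0.0736). Without those 5 libraries neither the HepKO rhythm (adjusted p = 0.162) nor the HepKO time differences (adjusted p = 0.104) of Junb passed. Prdx2 overlaps Junb on the opposite strand with 46062 counts against 8183 for Junb, and the strand setting of the counting is not given, so how far Prdx2 reads enter the Junb count was not tested.

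At single times Junb was called at ZT10, by a log2 of -0.96 ± 0.26 (adjusted p = 0.0301), where 7.71% of all tested genes were called. Leaving out any one of the 4 ZT10 libraries took the call away, with values of -1.02 to -0.89 and adjusted p between 0.101 and 0.189. Atf3 was called at ZT18, where 3.79% of all genes were. None of the 10 was called at ZT2 (1.86% of all genes), ZT6 (4.96%), ZT14 (7.64%) or ZT22 (1.35%) by edgeR at an adjusted p of 0.05. Unadjusted p was under 0.05 for 2, 2, 0 and 1 of the 10 at those times in turn, and the share of all tested genes at that unadjusted p was not counted.

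Atf3 (chr1:191170296-191218039, minus strand, GRCm38), a stress-induced factor of the ATF and CREB family that can pair with JUN proteins, was high at ZT14 together with Jun. In HepKO it read 0.429 and 0.491 CPM at ZT2, 0.807 and 1.05 at ZT6, 0.606 and 1.04 at ZT10, 1.95 and 1.55 at ZT14, 1.05 and 0.527 at ZT18, and 1.18 and 0.871 at ZT22. In HepWT it read 0.947 and 0.603 CPM at ZT2, 0.644 and 1.34 at ZT6, 0.689 and 0.699 at ZT10, 3.09 and 2.403 at ZT14, 1.99 and 3.18 at ZT18, and 1.10 and 0.743 at ZT22. HepKO lay wholly below HepWT at ZT2, ZT14 and ZT18. At ZT18 Atf3 fell by 1.65 on the log2 scale in HepKO (SE 0.40, adjusted p = 0.0262). That call was lost without HepKO ZT18 replicate 1, HepKO ZT18 replicate 2 or HepWT ZT18 replicate 2, with values from -2.28 to -1.28 and adjusted p between 0.0614 and 0.273. Averaged over the day the difference was -0.46 ± 0.17 and did not pass (adjusted p = 0.0555). The wave passed in HepWT, with an amplitude of 0.97 ± 0.21 and a peak at ZT16.1 (adjusted p = 0.00368). In HepKO the amplitude was 0.59 ± 0.24 (adjusted p = 0.205), and the difference between the 2 waves did not pass (adjusted p = 0.754). Differences between times in HepKO had adjusted p = 0.0653, and passed without either HepWT ZT6 library (adjusted p of 0.0467 and 0.0477).

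**Figure D2:**
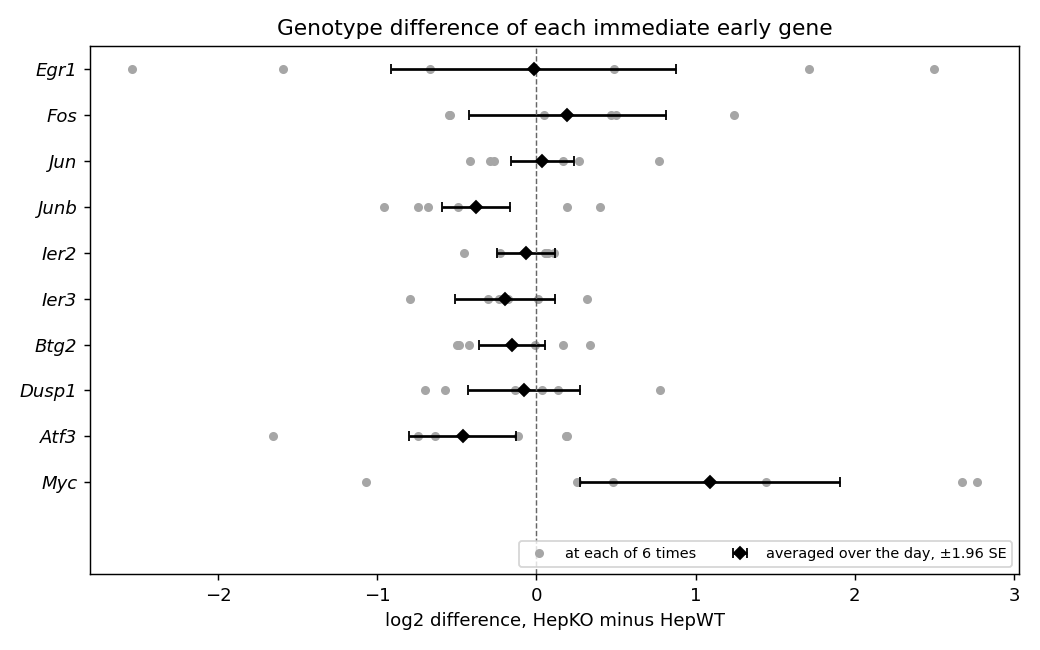
Log2 difference, HepKO minus HepWT, of each gene. Black diamonds give the average over the day with 1.96 SE and grey points the 6 single times. The intervals of Junb, Atf3 and Myc lie off 0, and only Junb passed after adjustment over all tested genes.

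Ier2 and Ier3 encode short-lived immediate early response proteins, IER2 a nuclear one and IER3 one linked to cell survival. Ier2 was the steadiest of the 10 per library pair, at 6.02 to 13.9 CPM in HepKO (median 11.9) and 8.16 to 19.0 CPM in HepWT (median 12.0). It was lowest at ZT18 in both genotypes, at 6.02 and 8.57 CPM in HepKO and 8.20 and 11.5 CPM in HepWT. Its small wave passed narrowly in HepKO (amplitude 0.36 ± 0.10, adjusted p = 0.0442) and in HepWT (0.30 ± 0.09, adjusted p = 0.0447). Ier3 read 0.283 to 0.778 CPM in HepKO and 0.311 to 0.942 CPM in HepWT, with its mean highest at ZT10 and lowest at ZT18 in both. Its wave passed in HepWT (0.56 ± 0.17, adjusted p = 0.0353), and the HepKO value was 0.34 ± 0.18 (adjusted p = 0.395). The difference of the Ier3 waves did not pass (adjusted p = 0.88).

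Each of these marginal calls was lost on removal of single libraries. For Ier2 in HepKO these were 13 of the 24, namely both HepKO libraries of ZT2, ZT6 and ZT18, HepKO ZT10 and ZT14 replicate 2, both HepWT libraries of ZT10, HepWT ZT6 replicate 2, and HepWT ZT14 and ZT22 replicate 1 (amplitude 0.26 to 0.38). For Ier2 in HepWT they were 10, namely both HepKO libraries of ZT2, HepKO ZT6 replicate 1, both HepWT libraries of ZT6 and ZT10, and HepWT ZT2, ZT14 and ZT18 replicate 1 (amplitude 0.21 to 0.33). For Ier3 in HepWT they were 6, namely both HepWT libraries of ZT10 and ZT18, HepWT ZT6 replicate 1 and HepWT ZT22 replicate 2 (amplitude 0.48 to 0.58).

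Btg2, an antiproliferative gene that p53 also induces, passed no test with all libraries. It read 8.77 to 17.1 CPM in HepKO (median 10.2) and 7.76 to 18.7 CPM in HepWT (median 12.0). Its lowest time mean was at ZT10 in both, with 8.90 and 8.81 CPM in HepKO and 7.76 and 8.02 CPM in HepWT. The day average differed by a log2 of -0.15 ± 0.10 (95% interval -0.36 to 0.05, adjusted p = 0.321). Differences between times in HepWT had adjusted p = 0.0566. They passed without either library of HepKO ZT2, HepKO ZT14 or HepWT ZT18, or without HepWT ZT14 replicate 2 (adjusted p of 0.0164 to 0.0499). HepKO lay wholly below HepWT at ZT2 and ZT6 and wholly above it at ZT10.

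Dusp1 (chr17:26505590-26562128, minus strand, GRCm38) encodes the MAP kinase phosphatase that closes the feedback loop on ERK, JNK and p38, and glucocorticoids also induce it. In HepKO it read 20.3 and 13.9 CPM at ZT2, 16.8 and 18.4 at ZT6, 17.4 and 19.6 at ZT10, 24.01 and 12.7 at ZT14, 15.9 and 10.9 at ZT18, and 16.9 and 22.4 at ZT22. In HepWT it read 11.5 and 19.7 CPM at ZT2, 6.87 and 13.7 at ZT6, 24.6 and 11.5 at ZT10, 30.5 and 24.6 at ZT14, 21.8 and 22.2 at ZT18, and 30.9 and 11.7 at ZT22. HepKO lay above HepWT at ZT6 and below it at ZT14 and ZT18, without overlap, and no single time passed. The fitted wave was nearly flat in HepKO, at 0.08 ± 0.18 (adjusted p = 0.947). In HepWT it was 0.56 ± 0.18 with a peak at ZT16.8 (adjusted p = 0.0482). The difference between the 2 waves did not pass (adjusted p = 0.424). Only without HepKO ZT14 replicate 1, HepKO ZT18 replicate 2, HepWT ZT2 replicate 2, HepWT ZT10 replicate 1 or either HepWT ZT22 library did the HepWT call hold. It was lost without each of the other 18 libraries in turn, with amplitudes of 0.42 to 0.62. Ergic1 overlaps Dusp1 on the opposite strand with 46081 counts against 10764 for Dusp1, and its part in the Dusp1 count was not tested.

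**Figure D3:**
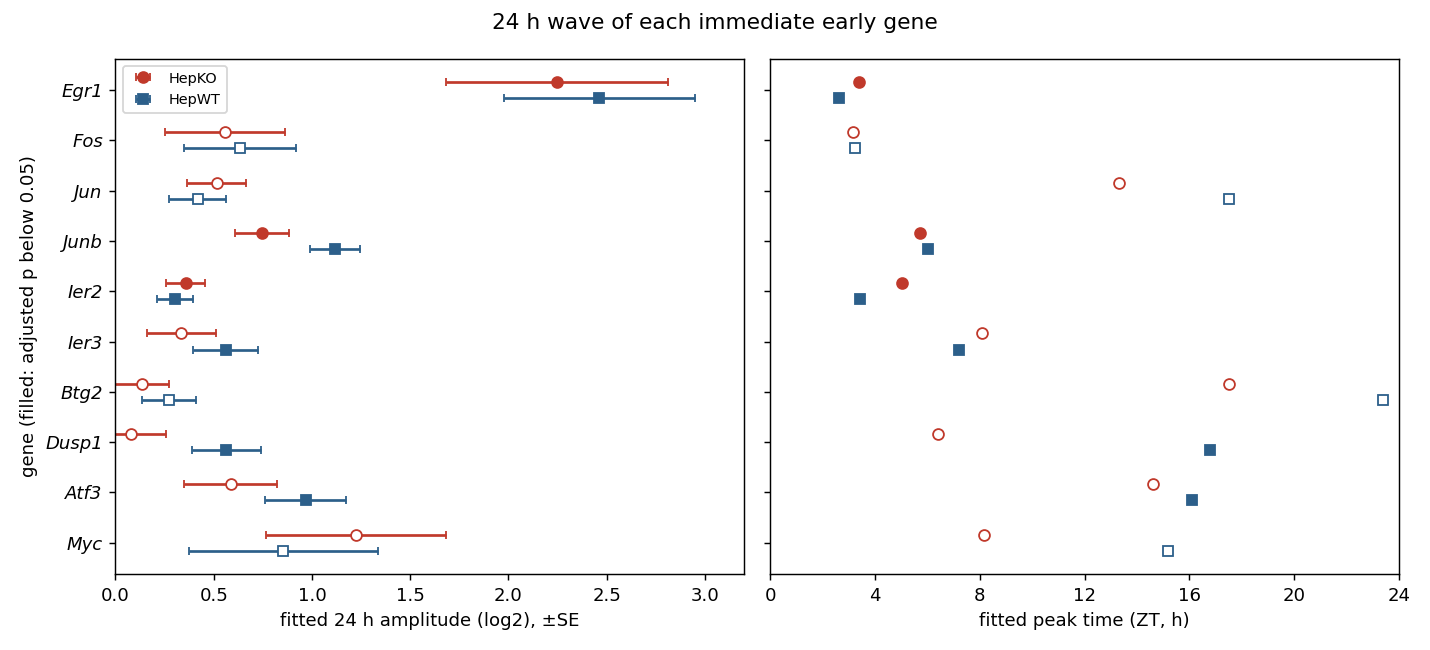
Fitted 24 h amplitude (log2, with SE, left) and fitted peak time (ZT in hours, right) of each gene, HepKO above HepWT. Filled symbols passed at an adjusted p of 0.05, which were Egr1, Junb and Ier2 in HepKO and these with Ier3, Dusp1 and Atf3 in HepWT.

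Counted together, the 24 h wave passed for 3 of 10 genes in HepKO (Egr1, Junb, Ier2), where 14.3% of all tested genes passed. In HepWT it passed for 6 of 10 (Egr1, Junb, Ier2, Ier3, Dusp1, Atf3), where 30.3% of all passed. The test over 6 separate times passed for 3 of 10 in HepKO (Egr1, Jun, Junb; 11.7% of all genes) and for 4 of 10 in HepWT (Egr1, Jun, Junb, Atf3; 25% of all genes). Median amplitudes of the 10 were 0.54 in HepKO and 0.60 in HepWT, against 0.19 and 0.23 over all tested genes. A fitted amplitude cannot be negative and also grows with the spread between libraries. That spread was wider for the 10 (median log2 gap 0.40) than for all tested genes (0.21). Fos stood at the 90.9th (HepKO) and 90th (HepWT) amplitude percentile although neither of its waves passed. In both genotypes Egr1 stood at the 99.9th percentile of all amplitudes. None of the 10 waves differed between genotypes by edgeR at an adjusted p of 0.05, where 1.5% of all genes were called, nor at an unadjusted p of 0.05. By DESeq2 none of the 10 was called either. Without the 5 HepKO libraries of lower depth, 0 of the 10 passed a genotype test or a HepKO time or rhythm test, and Egr1, Junb and Atf3 were the 3 with a HepWT wave. For the interaction of genotype with the 6 times, 0 of 10 passed at an adjusted p of 0.05 (1.12% of all genes), and DESeq2 called 1, Junb. Unadjusted edgeR p was under 0.05 for 4 (Egr1, Jun, Junb and Atf3), and the share of all tested genes at that unadjusted p was not counted.

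Fitted peaks of the waves that passed were all early in HepKO, and early or late in HepWT. The late ones rest on Atf3 and on Dusp1, whose call was lost without each of 18 libraries in turn. Among waves that passed, Egr1, Junb, Ier2 and, in HepWT, Ier3 peaked between ZT2.64 and ZT7.22, while Dusp1 and Atf3 peaked at ZT16.8 and ZT16.1 in HepWT. Jun, whose times differed although its single wave did not pass, had its highest mean at ZT14 in both genotypes.

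Myc (chr15:61985391-61990374, plus strand, GRCm38), the growth-promoting factor, had the largest day-average difference of the 10 genes, and it did not pass. In HepKO it read 26.8 and 4.16 CPM at ZT2, 9.98 and 19.2 at ZT6, 24.1 and 24.2 at ZT10, 3.38 and 26.2 at ZT14, 3.55 and 4.81 at ZT18, and 3.81 and 4.72 at ZT22. In HepWT it read 2.35 and 2.16 CPM at ZT2, 2.72 and 1.75 at ZT6, 7.97 and 9.81 at ZT10, 2.18 and 18.4 at ZT14, 3.18 and 3.74 at ZT18, and 1.80 and 15.9 at ZT22. HepKO lay wholly above HepWT at ZT2, ZT6 and ZT10. The day average was higher in HepKO by a log2 of 1.09 ± 0.42 (95% interval 0.27 to 1.91, adjusted p = 0.0634), with a higher HepKO mean at 5 of 6 times. At ZT2 the difference was 2.77 ± 1.05 (adjusted p = 0.233) and at ZT6 2.67 ± 1.07 (adjusted p = 0.18). The day average passed without HepKO ZT2 replicate 2, HepKO ZT14 replicate 1, HepWT ZT14 replicate 2 or HepWT ZT22 replicate 2, at 1.23 to 1.47 and adjusted p of 0.0136 to 0.031. It also passed with DESeq2 (1.11, adjusted p = 0.0447) and against HepWT replicate 1 alone (1.83, adjusted p = 0.0209). Without the 5 HepKO libraries of lower depth it was 0.61 (adjusted p = 0.475). Its HepKO amplitude was 1.23 ± 0.46 (adjusted p = 0.16). The HepWT amplitude of Myc, 0.85 ± 0.48 (adjusted p = 0.357), passed only without HepWT ZT22 replicate 2 (1.34, adjusted p = 0.0327) and was 0.39 without HepWT ZT14 replicate 2 (adjusted p = 0.869).

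The gene most like Myc over the 24 libraries was Cish, an inhibitor of cytokine signalling induced by growth hormone through STAT5, with Pearson r = 0.90 and Spearman rho = 0.85 among 11359 genes searched. It was chosen after its values were seen, so these values are a description with no test. Within HepKO r was 0.82 and within HepWT 0.96, and without the 2 libraries farthest from the median r was 0.91. The library with more Myc was also the one with more Cish in 10 of the 12 groups. In HepKO Cish read 27.0 and 2.09 CPM at ZT2, 12.7 and 20.7 at ZT14 and 4.05 and 15.5 at ZT22, in the replicate order used for Myc. In HepWT it read 1.82 and 2.31 CPM at ZT2, 3.42 and 41.3 at ZT14 and 2.16 and 41.6 at ZT22. At ZT2 in HepKO, and at ZT14 and ZT22 in HepWT, the library high for one was high for the other. Among the 24 libraries no Myc level lay between 4.81 and 7.97 CPM, nor between 9.98 and 15.9 CPM. Whether the levels form separate groups was not tested.

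**Figure D4:**
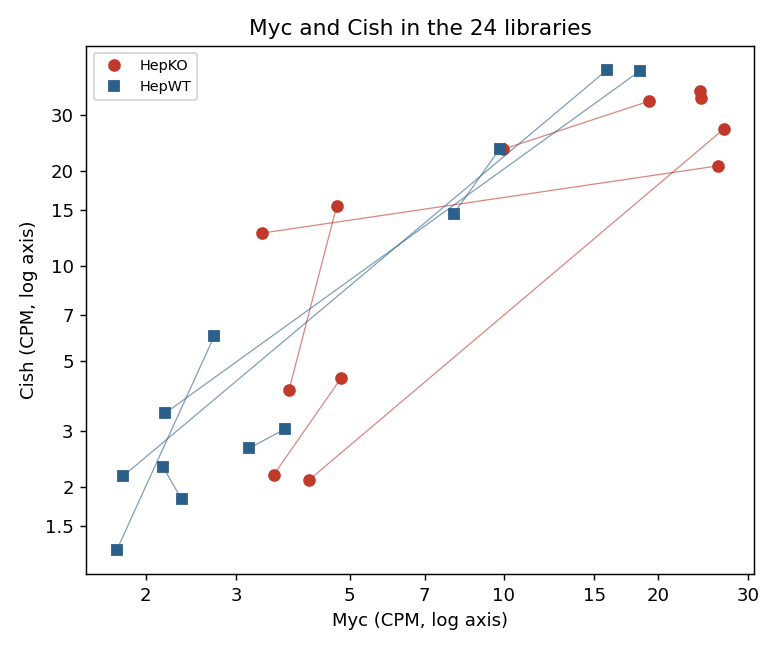
Cish against Myc in the 24 libraries (CPM, both axes log), HepKO circles and HepWT squares, with a line joining the 2 libraries of each genotype and time. The lines rise to the right in 10 of the 12 groups.

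The 2 libraries of the same genotype and time differed more for Egr1, Fos and Myc than for most genes. The largest gap was 8.47-fold for Myc, at 1.80 and 15.9 CPM in HepWT at ZT22, where counting error alone has an SD of 0.23 on the log2 scale. Egr1 reached 6.79-fold at ZT10 in HepKO, with 1.63 and 11.5 CPM, and Fos 4.60-fold at ZT22 in HepKO, with 1.63 and 0.290 CPM. The median gap over the 12 groups was 0.86 (log2) for Egr1, at the 97.8th percentile of all tested genes, and 0.84 for Fos, at the 97.6th. For Dusp1 it was 0.54 and for Myc 0.52. The median over the 10 genes was 0.40, against 0.21 over all tested genes. Gaps above 2-fold occurred in 5 of 12 groups for Egr1, 5 for Fos, 4 for Myc and 2 for Dusp1. No group of the other 6 genes had such a gap. For Fos the counting SD was 0.58 at the median, so a large part of its gap is within counting error.

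**Figure D5:**
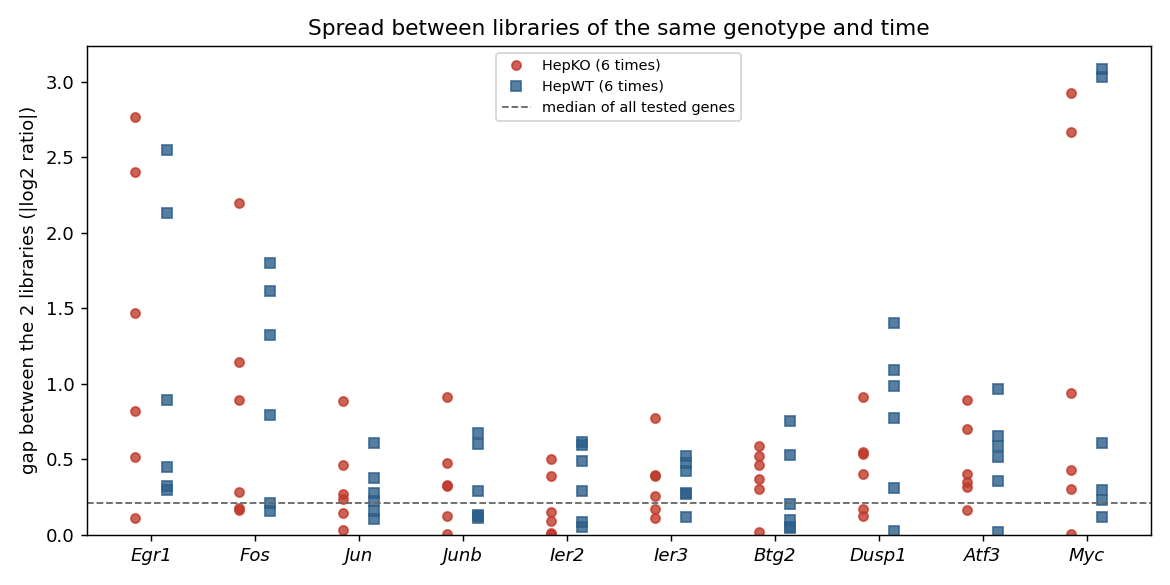
Absolute log2 ratio of the 2 libraries of each genotype and time, 12 points per gene, HepKO left of HepWT. The dashed line is the median over all tested genes (0.21), and Egr1, Fos and Myc hold the points above 1.5.

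Whether the differences between the 2 libraries correlated between genes over those 12 groups was tested pair by pair. Over the 45 pairs of genes, the replicate 2 minus replicate 1 differences gave 4 pairs with an unadjusted permutation p under 0.05 for Pearson r and 2 for Spearman rho. None passed after Benjamini-Hochberg adjustment (smallest adjusted permutation p 0.456 for r and 0.573 for rho). The largest r was 0.64, for Fos and Atf3 (0.605 without the 2 groups farthest from the Fos median). For Egr1 and Junb r was 0.61, and 0.63 without the 2 groups farthest from the Egr1 median. Jun and Dusp1 (rho = 0.67) were higher in the same library in 9 of 12 groups. Across all 24 libraries, which share times and depth, Egr1 had r = 0.73 with Ier2, 0.70 with Junb and -0.58 with Jun, given as a description. The 2 genes of a pair were higher in the same library in 4 to 9 of the 12 groups, a count that was not tested. With 12 groups, pairs that miss the threshold are not shown to vary apart. The sign of each difference, and so r, rho and their p, depends on the replicate numbers, which are not read as pairs across genotypes. In 5 HepKO groups replicate 2 was also the shallower library.

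The genes most like the mean of the 10 (z-scored log2 CPM, Pearson r over 24 libraries) were Islr at 0.73, Gm26608 at 0.69, Gm19840 at 0.67, Clstn1 at 0.64 and Ppfia4 at 0.63. Oser1, Gm48621, Fbxo38, Kifc1 and Ccr9 followed at 0.62 to 0.63. Several of these genes were near the floor, with a mean of 0.192 CPM for Gm19840, 0.251 for Gm48621, 0.469 for Kifc1 and 0.434 for Ccr9. These values are a description over libraries that share time and genotype.

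Of 31 other immediate early genes tested, 5 rose and 6 fell in HepKO over the day, and 20 did not pass, with a median log2 difference of 0.08. Over all tested genes 13.2% rose and 13.3% fell. Klf10, a factor induced by TGF-beta signals and known to follow the liver clock, averaged 8.46 ± 2.6 CPM in HepKO and 19.7 ± 11.9 CPM in HepWT (SD, n = 12 each) and fell by 1.07 (log2, adjusted p = 1.77e-05). Maff, a small MAF factor, averaged 0.910 ± 0.379 CPM in HepKO and 2.69 ± 1.94 CPM in HepWT and fell by 1.31 (adjusted p = 2.4e-05). Trib1, a pseudokinase, fell by 0.42 and Btg1, the relative of Btg2, rose by 0.41. In HepWT 15 of the 31 had a 24 h wave (30.3% of all tested genes) and in HepKO 6 (14.3% of all). Of the 31, 0 differed in wave between genotypes (1.5% of all). The 5 that rose became 2 without HepKO ZT18 replicate 2. They became 3 without either HepKO ZT6 library, the replicate 1 library of HepKO ZT10, ZT14 or ZT22 or of HepWT ZT2 or ZT6, or the replicate 2 library of HepWT ZT10, ZT14, ZT18 or ZT22.

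Upstream, 5 of 29 genes of the ERK, SRF and CREB input rose in HepKO, 5 fell and 19 did not pass. Rps6ka1, the ERK-activated kinase RSK1, averaged 8.99 ± 1.76 CPM in HepKO and 15.9 ± 3.33 CPM in HepWT (SD, n = 12 each), a fall of 0.82 (log2, adjusted p = 1.33e-05). Nras fell by 0.24 and Crem, a cyclic AMP responsive factor, rose by 0.46. Of 16 feedback genes 2 rose, 3 fell and 11 did not pass. Spry4, an inhibitor of receptor signalling to ERK, fell by 0.71 and the phosphatase gene Dusp3 by 0.26, whereas Tob1 rose by 0.32 and Spry1 by 0.35. Of the 12 partners and relatives of MYC 1 rose, 3 fell and 8 did not pass. Mlxipl, the carbohydrate-sensing factor ChREBP, fell by 0.52, Mycn by 1.34 and Mlx by 0.16, and Mnt, a MAX-binding repressor, rose by 0.23. The rise of Mnt held without the replicate 2 library of HepKO ZT6, ZT14 or ZT18, HepWT ZT6 or ZT14 replicate 1, or HepWT ZT22 replicate 2, and was lost without each of the other 18 in turn. Feedback genes that fell numbered 5 without HepWT ZT22 replicate 2. With 26.5% of all genes called, these shares are near the background.

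Among 10 glucocorticoid-responsive genes 4 rose, 3 fell and 3 did not pass. Of all tested genes 13.2% rose and 13.3% fell, the background for this list and for the heat shock list below. Cdkn1a, the cell cycle inhibitor p21, averaged 13.9 ± 6.21 CPM in HepKO and 3.84 ± 4.21 CPM in HepWT (SD, n = 12 each), a rise of 2.41 (log2, adjusted p = 2.05e-08). Fkbp5, a chaperone of the glucocorticoid receptor, fell by 1.28, while Tsc22d3 rose by 0.63 and Zbtb16 by 0.60. Of 9 heat shock genes 1 rose (Hspa1a, by 1.05), 1 fell (Hspb1, by 0.62) and 7 did not pass. The heat shock count moved with single libraries. Without HepWT ZT2 replicate 1, 6 of the 9 rose, and without HepKO ZT2 or ZT6 replicate 1, HepKO ZT18 replicate 2, or HepWT ZT18 or ZT22 replicate 1, 2 rose. The fall of Hspb1 held without HepKO ZT14 replicate 2, HepKO ZT22 replicate 1 or the replicate 2 library of HepWT ZT2, ZT6, ZT10, ZT14 or ZT22, and was lost without each of the other 17 libraries in turn.

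Other liver cells also express immediate early genes, and in bulk RNA fewer cells of a type and less RNA per cell cannot be told apart. All 10 Kupffer cell and macrophage markers fell in HepKO, with summed levels of 238 to 494 CPM in HepKO and 305 to 555 CPM in HepWT. The background for this and the next lists is the 13.3% of all tested genes that fell and the 13.2% that rose. Of 8 endothelial markers 5 fell, with sums of 410 to 479 CPM in HepKO and 441 to 506 CPM in HepWT. Of 8 stellate and fibroblast markers 4 fell and 1 rose, with sums of 376 to 494 CPM in HepKO and 387 to 593 CPM in HepWT. Of 5 tested cholangiocyte markers 2 rose, Sox9 by 1.20 and Spp1 by 1.06 (log2), with sums over that list of 46.9 to 159 CPM in HepKO and 26.0 to 58.0 CPM in HepWT. Neutrophil (0 of 3), T and NK cell (0 of 4) and erythroid markers (0 of 5) held no call, and of 6 B and plasma cell markers Jchain rose. No list had a gene at 0 in every library. The part of these cell types in the Junb and Atf3 results was not tested.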

How the data were processed

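The authors deposited raw counts, 1 whole number for each Ensembl gene in each library, with no scaling. STAR 2.4.0i and the build mm10 are named in the submitters' processing notes, and the labels' protocols name a stranded kit with ribosomal RNA depletion. How reads were counted, on which annotation and strand, is not stated in these sources, and 5 HepKO replicate 2 columns carry an unexplained suffix. All 24 columns were used, grouped by genotype and time.

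The main tests were run in edgeR 4.0.16 (R 4.3.3, TMM scaling, filterByExpr with minimum count 10 and minimum total 15, quasi-likelihood F tests, two-sided, Benjamini-Hochberg adjustment over 17275 genes, threshold 0.05). One model had a level for each of the 12 groups (12 residual degrees of freedom), another a 24 h cosine and sine per genotype (18). The 24 libraries shared the estimate of spread. Stated 95% intervals are the estimate ± 1.96 SE, a normal approximation narrower than an interval from the degrees of freedom of the F test. Replicate gaps and correlations used log2 CPM with a prior count of 2, and pair tests 100000 permutations. Libraries held 12997689 to 30677807 counts. The 2 libraries of a group had a chi-square per degree of freedom of 8.76 to 56.9 over genes, so over all genes library spread exceeded counting error, which still weighs on genes of few counts such as Fos, Ier3 and Atf3. Reads amplified by PCR carry no molecular identifier here and are not independent.

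Gene positions came from GENCODE M21 (GRCm38) and promoters from RefSeq. The members and gene lists were chosen with earlier results of these data known. All 10 members were named, with up to 4 called genes of smallest p per list and the 10 genes most like the member mean. A further gene that this rule takes is not reported here. The tests were also run on counts simulated with the spread fitted to these data, so that run cannot check the fitted spread. Alternatives were RLE scaling, no filter, limma-voom (limma 3.58.1), DESeq2 1.42.0, a replicate block, an added 12 h wave, time as a 24 h wave, HepWT replicate 1 or 2 alone, removal of the 5 HepKO libraries of lower depth, and removal of each library. A group left with 1 library was assumed to vary like the others.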

Additional observations from a re-analysis of the deposited data

How the results depend on the processing

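RLE scaling kept every count of calls within 1.5 times, and so did limma-voom for each count it gave but 2: 1 glucocorticoid-responsive gene fell in place of 3, and Hspb1 did not pass. Without the 5 HepKO libraries of lower depth fewer genes were called: 2886 in place of 4572 for the day average, 43 in place of 193 for the interaction, 138 in place of 2028 for times in HepKO, 173 in place of 2471 for the HepKO wave and 66 in place of 259 for the difference of waves. By time it left 165 (ZT2), 137 (ZT6), 488 (ZT10), 612 (ZT14), 187 (ZT18) and 80 (ZT22) genes, in place of 321, 857, 1332, 1320, 654 and 233. Immediate early genes called were then 0 for the day average, 0 for times and 0 for the wave in HepKO, 3 for the wave in HepWT, and 0 at ZT10 and ZT18. That setting leaves 1 HepKO library at 5 of the 6 times. With no filter the estimated prior degrees of freedom were infinite, in place of a median of 4.91, so genes lost their own spread and its adjusted p-values are not read as evidence. It called 1655 genes for the interaction, 3488 for times in HepKO, 1367 for the difference of waves, and 1246, 1691, 2030, 1314 and 1000 at ZT2, ZT6, ZT10, ZT18 and ZT22. Immediate early genes called there were 3 for the day average, 6 for the interaction, 7 and 9 for times in HepKO and HepWT, 6 for the HepKO wave, 5 for the difference of waves, and 2, 4, 4, 1, 4 and 2 at the 6 times. DESeq2 called 528 genes for the interaction (1 of the 10, Junb), 571 for the difference of waves and 2 of the 10 for the day average (Junb and Myc). With HepWT replicate 1 or replicate 2 alone the difference of waves had 165 or 149 genes. With limma-voom the HepKO times of Egr1 did not pass (adjusted p = 0.251), and with an added 12 h wave the HepWT wave of Ier2 did not (adjusted p = 0.0503). Without the 5 libraries, 2 other immediate early genes rose and 3 fell, in place of 5 and 6, 2 genes of the ERK, SRF and CREB input fell in place of 5, 1 feedback gene rose in place of 2, and Mnt and Hspb1 did not pass. With time as a 24 h wave 2 other immediate early genes, 0 heat shock genes and no MYC relative rose. Against HepWT replicate 2 alone 6 heat shock genes rose and Hspb1 did not pass, 3 other immediate early genes rose, 3 input genes fell and 1 feedback gene rose. Against HepWT replicate 1 alone 3 other immediate early genes rose and Mnt did not pass. The replicate block had 2 heat shock genes rise. With no filter 6 heat shock genes rose, 5 feedback genes fell and Mnt did not pass. Causes were not tested.

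Labels give the groups the same replicate numbers, but replicate differences of HepKO and HepWT at the same time correlated at -0.13 to 0.12, so the numbers are not read as pairs across genotypes. Within HepWT the 15 pairs of times correlated at -0.07 to 0.44 (median 0.23) and within HepKO at -0.24 to 0.17 (median -0.02). With the replicate block 2 of the 10 were called for the day average (Junb, and Myc at 1.16), and the HepWT wave of Dusp1 was lost (0.55, adjusted p = 0.0541). That block is a single term for replicate 2 shared by both genotypes, so it cannot take up a replicate effect confined to HepWT or to HepKO.

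Removing each library in turn gave 1 to 3 of the 10 for the day average, 1 to 4 for the HepKO wave, 3 to 6 for the HepWT wave, 0 to 2 at ZT10 and 0 to 1 at ZT18. Genes called ranged from 1200 to 2049 for times in HepKO, 171 to 301 for the difference of waves, 80 to 453 at ZT2, 200 to 954 at ZT6, 551 to 1416 at ZT10, 844 to 1366 at ZT14, 244 to 716 at ZT18 and 108 to 285 at ZT22. Day averages near 0 changed sign: Egr1 ran from -0.34 to 0.30, Fos from -0.11 to 0.43, Jun from -0.0441 to 0.104 and Dusp1 from -0.165 to 0.0685. Against HepWT replicate 1 alone Egr1 was 0.0802. Against HepWT replicate 2 alone Egr1 was 0.23, Jun -0.0371, Dusp1 0.0761 and Hspb1 0.0484, and without the 5 libraries Jun was -0.0232. The day average of Atf3 passed without HepKO ZT10 replicate 2, HepKO ZT18 replicate 1, HepWT ZT2 replicate 2, HepWT ZT6 or ZT18 replicate 1, or HepWT ZT22 replicate 2 (-0.57 to -0.50). Depth limits Fos, Ier3 and Atf3, at 4 to 92 counts a library.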

Other observations

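The genes most like Myc over the 24 libraries after Cish, chosen after their values were seen and given with no test, were Gm16348 (r = 0.90, rho = 0.90), Gadd45g (0.88 and 0.86), a growth arrest gene also on the list of other immediate early genes, Foxa1 (0.88 and 0.80), a liver pioneer factor, and Vmp1 (0.86 and 0.90), an autophagy gene.

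Single genes most like other members, chosen in the same way, were Acap3 for Jun (r = 0.89), Mfsd14b for Junb (0.86), Slc7a8 for Egr1 (0.83) and Gch1 for Ier3 (0.83).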
